A study of Mus musculus with 10 samples.

Results

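Cdx1, Cdx2, Hnf4a, Hnf4g, Gata6, Klf4, Klf5 and Elf3 are 8 transcription factor genes that give and keep intestinal identity in gut epithelium. They were taken by symbol from a table of raw read counts for 13932 genes in mouse ileal epithelium, where all 8 are listed, and all 8 were among the 12477 genes with enough counts to test. RNA came from live cells of the ileum sorted for the epithelial surface protein EpCAM and against CD45, which marks leukocytes, with 1 library per mouse. All 10 mice carried the floxed MHC class II gene H2-Ab1 (H2-Ab1 fl/fl). In the 5 mice called dIEC the sample labels give Villin:Cre+, a Cre recombinase driven by the villin promoter, which is active throughout the intestinal epithelium, and in the 5 called WT they give Villin:Cre-. The series text gives Cre- for both groups. Since all dIEC mice and no WT mice carried Cre, the deletion and the presence of Cre cannot be told apart. Each genotype had 3 males and 2 females, and the labels give no age and no batch.

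Gut epithelium is renewed from stem cells in the crypts, whose daughters divide, move up onto the villus and mature there, most of them into absorptive enterocytes. Cdx1 and Cdx2 are homeodomain factors that set intestinal as opposed to gastric fate, and Cdx2 is needed throughout life to hold that fate. Hnf4a and Hnf4g are closely related nuclear receptors that act together on genes of absorption and fat handling as enterocytes mature. Gata6 is a zinc finger factor that works with Gata4 in segment identity and in crypt renewal. Klf4 and Klf5 are Krüppel-like factors that bind similar GC-rich sites but are known from opposite ends of the axis, Klf4 from differentiated villus and goblet cells and Klf5 from dividing crypt cells. Elf3 is an epithelial ETS factor involved in enterocyte and goblet cell maturation.

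The libraries held 9174101 to 13484363 counts. Values are given as CPM, counts scaled to a common library total by TMM, a method that lines up the bulk of genes between libraries, with scaling factors from 0.812 (dIEC 7) to 1.21 (dIEC 9). H2-Ab1, the gene to be deleted, lay between 62.9 and 368 CPM in WT and between 0.767 and 3.11 CPM in dIEC, so every library matched its genotype label. The epithelial brush border gene Vil1 was abundant (4365 ± 939 CPM in WT and 4754 ± 1587 CPM in dIEC; SD, n = 5 each). The ileal bile acid binding gene Fabp6 was at 843 ± 421 and 956 ± 502 CPM. Tested ileum genes ran from a mean of 34.1 CPM over all libraries (Slc10a2) to 2352 CPM (Cubn). Tested genes of proximal small intestine ran from 12.1 CPM (Onecut2) to 4060 CPM (Lct). Of 21 leukocyte genes 3 were listed, with summed levels of 8.66 to 18.01 CPM in WT and 12.0 to 19.1 CPM in dIEC, and the CD45 gene Ptprc had 1 to 13 counts. Of 15 stromal genes 5 were listed, with sums of 5.56 to 8.84 CPM and 7.07 to 13.5 CPM. The libraries differed in their place between crypt and villus. The mean log2 CPM of 25 mature enterocyte genes ran from 9.72 in dIEC 9 to 11.22 in dIEC 7, and that of 26 proliferation genes from 2.97 in dIEC 7 to 5.62 in dIEC 9. Both extremes were dIEC females. In such bulk samples, fewer cells of a type and less RNA per cell cannot be told apart.

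Promoter windows from RefSeq on GRCm38.p6, the mm10 assembly, from 250 bases before to 50 bases after a start site, were matched by symbol and are used for 4 members. Those of Klf4 and of 2 start sites of Hnf4a are printed because both genes followed the enterocyte score below, and that of Cdx2 because it did not. Each runs 5′ to 3′ on the gene's strand, and capitals mark matches, on either strand, to motifs of factors of the 8 genes' own families or to a TATA box.
Klf4, chr4:55532426-55532725, minus strand: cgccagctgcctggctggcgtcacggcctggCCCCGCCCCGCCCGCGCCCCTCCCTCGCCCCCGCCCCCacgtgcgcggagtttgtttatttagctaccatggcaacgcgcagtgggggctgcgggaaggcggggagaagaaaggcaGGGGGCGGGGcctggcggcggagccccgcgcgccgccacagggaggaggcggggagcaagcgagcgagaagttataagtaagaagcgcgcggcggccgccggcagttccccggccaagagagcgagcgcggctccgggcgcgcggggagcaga
Hnf4a, upstream start, chr2:163506607-163506906, plus strand: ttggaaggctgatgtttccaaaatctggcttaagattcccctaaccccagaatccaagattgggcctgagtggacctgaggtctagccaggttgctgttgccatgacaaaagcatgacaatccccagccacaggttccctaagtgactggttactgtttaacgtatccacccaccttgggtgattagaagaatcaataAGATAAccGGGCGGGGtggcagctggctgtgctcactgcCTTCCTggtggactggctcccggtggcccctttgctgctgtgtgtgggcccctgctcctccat
Hnf4a, downstream start, chr2:163546905-163547204, plus strand: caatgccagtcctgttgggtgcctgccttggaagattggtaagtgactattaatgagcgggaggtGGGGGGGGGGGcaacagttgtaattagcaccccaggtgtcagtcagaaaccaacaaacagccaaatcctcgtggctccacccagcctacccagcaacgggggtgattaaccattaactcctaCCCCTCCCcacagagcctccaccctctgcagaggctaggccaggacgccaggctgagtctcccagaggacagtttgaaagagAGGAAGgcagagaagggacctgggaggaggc
Cdx2, chr5:147307200-147307499, minus strand: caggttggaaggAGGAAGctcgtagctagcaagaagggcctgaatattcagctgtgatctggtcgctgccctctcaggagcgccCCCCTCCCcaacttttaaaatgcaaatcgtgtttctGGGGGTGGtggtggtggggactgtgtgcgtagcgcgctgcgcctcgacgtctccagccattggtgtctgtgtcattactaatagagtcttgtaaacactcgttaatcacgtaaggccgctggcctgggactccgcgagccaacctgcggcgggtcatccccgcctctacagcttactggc

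The motifs searched were NGATAA for GATA factors, CAAAGTCCA for HNF4, TTTATNG for CDX, CCNCNCCC for KLF factors, AGGAAG for ETS factors and TATAAA for a TATA box. Of all 32851 promoter windows of this length, 25.3% held the GATA letters, 0.475% the HNF4 letters, 10.9% the CDX letters, 49.5% the KLF letters, 35.4% the ETS letters and 13.6% the TATA letters. The Klf4 window was GC-rich, at 74.3% against a median of 52.7% for all windows, and held 9 partly overlapping KLF matches and none of the other motifs. The upstream Hnf4a window held 1 GATA, 1 KLF and 1 ETS match, and the downstream one 5 KLF matches, of which 4 overlap in a run of G, and 1 ETS match. The Cdx2 window held 2 KLF matches and 1 ETS match, and that of Elf3, not printed, 2 KLF matches. A match describes letters in the window and is not evidence of binding.

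On mm10, with GENCODE M21 annotation, Cdx1 (ENSMUSG00000024619) spans chromosome 18 from 61018862 to 61036199 on the minus strand and Gata6 (ENSMUSG00000005836) the same chromosome from 11052064 to 11085635 on the plus strand. Cdx2 (ENSMUSG00000029646) lies on chromosome 5 from 147300805 to 147307270, minus strand, and Klf4 (ENSMUSG00000003032) on chromosome 4 from 55527143 to 55532466, minus strand. Hnf4a (ENSMUSG00000017950) lies on chromosome 2 from 163506808 to 163572910 and Hnf4g (ENSMUSG00000017688) on chromosome 3 from 3508030 to 3658052, both on the plus strand. Klf5 (ENSMUSG00000005148) lies on chromosome 14 from 99298691 to 99315036, plus strand, and Elf3 (ENSMUSG00000003051) on chromosome 1 from 135253575 to 135258568, minus strand. Genes on the opposite strand overlap 3 of them. Gata6 shares 93 exon bases with 1010001N08Rik, which reached 160 counts at most, Elf3 shares 162 exon bases with Gm26642, which is not in the table, and Hnf4a shares no exon base with Hnf4aos. The sources used here do not say whether strand was used in counting, and reads in the shared bases cannot be assigned with certainty.

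Levels of different genes were compared per kilobase of exon. The HNF4 receptors were highest, with Hnf4g at 256 ± 49.9 and Hnf4a at 189 ± 27.9 CPM per kb (SD over 10 mice), and Hnf4g exceeded Hnf4a in 10 of 10 libraries. Elf3 followed at 175 ± 24.4 CPM per kb and did not separate from Hnf4a, which was higher in 5 of 10 libraries. Klf4 was at 107 ± 51.7, below Elf3 in 8 of 10 libraries and above Cdx2 in 7 of 10. Cdx2, at 72.9 ± 9.52, exceeded Cdx1, at 58.8 ± 6.35 CPM per kb, in 8 of 10 libraries. Klf5 (32.2 ± 4.89) and Gata6 (13.2 ± 3.31 CPM per kb) came last, each below the gene before it in 10 of 10 libraries. The order was the same with the length of the longest transcript, which put Klf5 at 49.9 and Gata6 at 22.7 CPM per kb, but Klf5 was then below Cdx1 in 8 of 10 libraries, not in WT 10 and dIEC 7. In CPM without length, Hnf4a led Hnf4g, so the order of these 2 receptors depends on exon length, 4828 bases for Hnf4a and 2630 for Hnf4g.

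**Figure D1:**
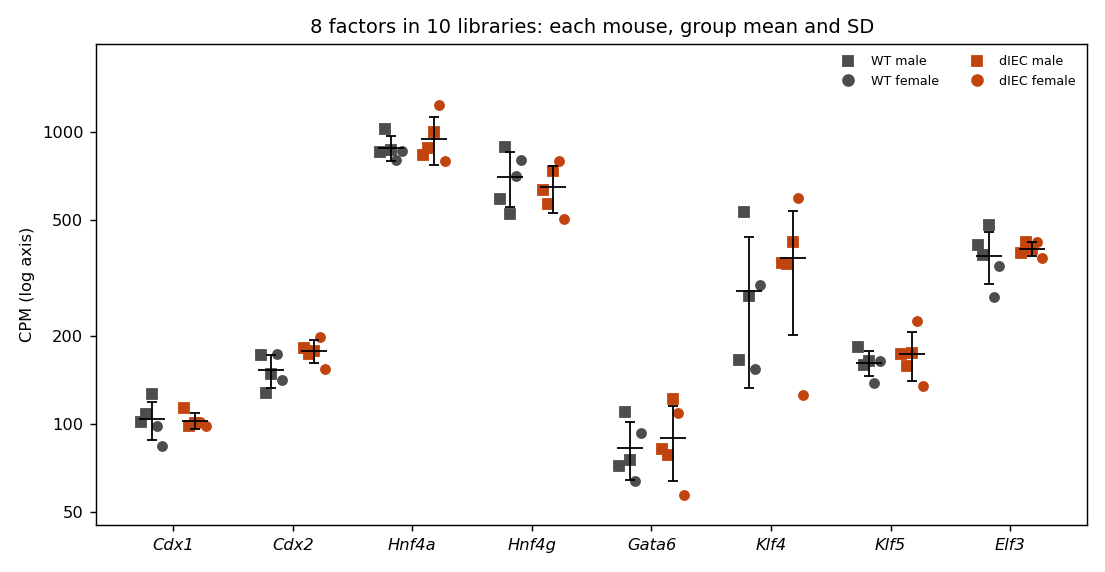
CPM (log axis) of the 8 factors in each of 10 mice, grey for WT and orange for dIEC, squares for males and circles for females, with the group mean and SD as bars. The groups overlap for every factor, and Klf4 has the widest spread, from 125 CPM in dIEC 9 to 594 CPM in dIEC 7.

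The first comparison asked whether the factors differed between dIEC and WT epithelium. None of the 8 was called by edgeR's quasi-likelihood test with sex in the model (adjusted p under 0.05 over all tested genes), and 0 of 8 had an unadjusted p under 0.05. DESeq2 and limma voom also called 0 of 8. Among all 12477 tested genes 2, or 0.016%, were called in edgeR, and 355 had an unadjusted p under 0.05. The log2 fold changes of dIEC against WT were above 0 for 6 members and below 0 for 2, with a median of 0.10, against a median of 0.01 over all tested genes. All 8 adjusted p-values were 0.9999.

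Cdx1 stood at 101 CPM in WT 2, 108 in WT 4, 126 in WT 6, 98.3 in WT 8 and 84.0 in WT 10, and at 113 in dIEC 1, 98.3 in dIEC 3, 100.3 in dIEC 5, 101 in dIEC 7 and 98.0 in dIEC 9. The dIEC values lay inside the WT range, and 4 of them lay close together. The log2 fold change was -0.01 (SE 0.12), with means of 104 ± 15.4 CPM in WT and 102 ± 6.27 CPM in dIEC (SD, n = 5 each). Cdx2 measured 172, 128, 148, 173.5 and 141 CPM in WT 2, 4, 6, 8 and 10, and 182, 174.0, 178, 198 and 153 CPM in dIEC 1, 3, 5, 7 and 9. Of the dIEC libraries, 4 of 5 lay above every WT library, dIEC 3 by under 1 CPM, and dIEC 9 lay within the WT range. Its log2 fold change of 0.22 (SE 0.13; 153 ± 19.99 and 177 ± 16.2 CPM) did not pass, and it was the only one of the 8 to keep its sign in every alternative tried, from 0.16 to 0.28.

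Hnf4a, the more highly counted of the receptors, had 853, 1025, 864, 801 and 859 CPM in WT 2, 4, 6, 8 and 10. In dIEC 1, 3, 5, 7 and 9 it had 836, 880, 997, 1231 and 794 CPM. The dIEC libraries held both the highest and the lowest value, in the 2 females. The log2 fold change was 0.11 (SE 0.17; 880 ± 84.9 and 948 ± 176 CPM). Hnf4g had 590, 888, 523, 706 and 804 CPM in the same order in WT, and 632, 566, 733, 794 and 501 CPM in dIEC. Its groups overlapped almost wholly, with WT 4 highest and dIEC 9 lowest, and its log2 fold change was -0.12 (SE 0.20; 702 ± 150 and 645 ± 120 CPM). The receptors thus had differences of opposite sign, neither of which exceeded its error.

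Gata6 was measured at 71.6, 109.6, 75.1, 63.6 and 93.1 CPM in WT 2, 4, 6, 8 and 10, and at 81.6, 78.2, 122, 109 and 56.9 CPM in dIEC 1, 3, 5, 7 and 9. The 2 groups covered nearly the same range, and the log2 fold change was 0.11 (SE 0.22; 82.6 ± 18.5 and 89.5 ± 25.9 CPM). Gata4, its partner in segment identity, had -0.04 (SE 0.25).

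Klf4 had 166, 533, 274, 154 and 298 CPM in WT 2, 4, 6, 8 and 10. In dIEC 1, 3, 5, 7 and 9 it had 354, 351, 420, 594 and 125 CPM. High and low libraries occurred in both genotypes, with WT 4 and dIEC 7 highest and WT 2, WT 8 and dIEC 9 lowest. The log2 fold change was 0.39 (SE 0.43; 285 ± 152 and 369 ± 168 CPM), the largest in size of the 8 and the least precise. It was -0.09 without dIEC 7 and 0.73 without WT 4. Klf5 had 183, 159, 163, 138 and 164 CPM in WT and 173, 157, 175, 225 and 135 CPM in dIEC, in the same order. Apart from dIEC 7 and dIEC 9, all dIEC values lay inside the WT range, and the log2 fold change was 0.10 (SE 0.16; 161 ± 16.1 and 173 ± 33.3 CPM).

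Elf3 had 409, 378, 478, 271 and 348 CPM in WT 2, 4, 6, 8 and 10, and 384, 419, 398, 420 and 369 CPM in dIEC 1, 3, 5, 7 and 9. All dIEC values lay inside the WT range. The log2 fold change was 0.09 (SE 0.15; 377 ± 76.4 and 398 ± 22.1 CPM).

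**Figure D2:**
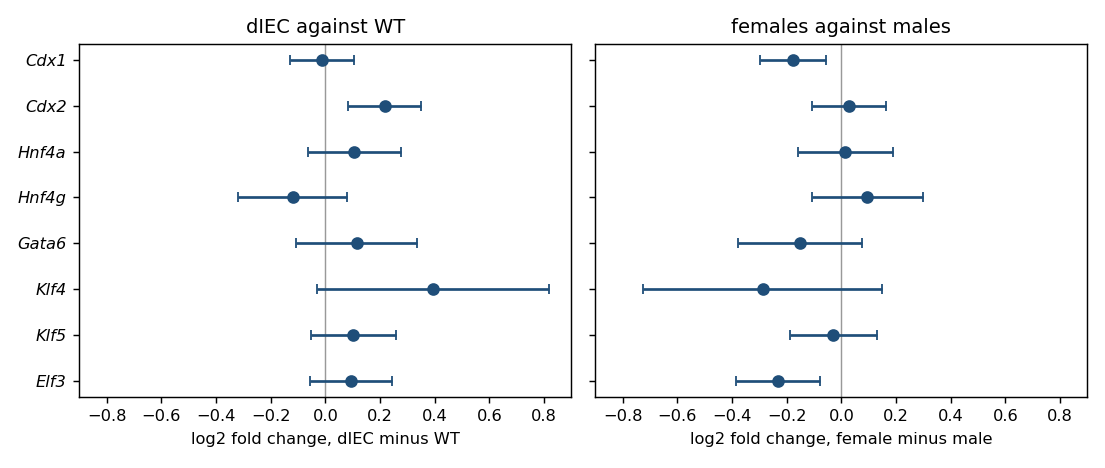
Log2 fold changes of the 8 factors from edgeR, dIEC against WT on the left and females against males on the right, with bars of 1 SE either side. The points lie between -0.12 and 0.39 for genotype and between -0.29 and 0.09 for sex, and Klf4 has the longest bars.

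Females and males were compared next. The test by sex called 0 of 8 members in edgeR, against 5 genes, or 0.0401%, of all tested genes. An unadjusted p under 0.05 was found there for 0 of 8 members and for 554 of all 12477 tested genes. By sex, 0 of 8 were called by DESeq2 and by limma voom. The log2 fold changes of females against males ran from -0.29 for Klf4 (SE 0.44) and -0.23 for Elf3 (SE 0.15) to 0.09 for Hnf4g (SE 0.20). The median of the 8 was -0.09, against 0.04 over all tested genes. Hnf4a (0.01) and Cdx2 (0.03) turned to -0.06 and -0.04 with library size as the only scaling. With the proliferation score added to the model, Klf4 was called lower in females (log2 fold change -0.91, SE 0.14, edgeR adjusted p = 0.0111), 1 of 8 members against 4.48% of all tested genes. The interaction of genotype and sex called 0 of 8 members in edgeR, against 0.00801% of all tested genes, and 0 of 8 in DESeq2 and limma voom. In edgeR 0 of 8 members had an unadjusted p under 0.05 for the interaction, against 262 of all 12477 tested genes. The interaction's log2 values ran from -0.17 for Hnf4g (SE 0.43) to 0.46 for Klf4 (SE 0.90), and rest on 2 females per genotype.

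Some of the factors varied far more between mice than others. Klf4 had a 4.73-fold range over the 10 libraries, and 95.8% of the 8443 tested genes with a mean of at least 10 CPM had a smaller SD of log2 CPM. Gata6 ranged 2.14-fold, with 66.0% of genes less variable, and Hnf4g 1.77-fold, with 49.8% less variable. The remaining factors were steadier than most genes. Elf3 ranged 1.76-fold (30.6% of genes less variable), Klf5 1.67-fold (28.7%), Hnf4a 1.55-fold (24.6%), Cdx2 1.55-fold (23.9%) and Cdx1 1.503-fold (11.5%).

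The third question was how each factor related to crypt and villus markers across the 10 libraries. Scores were the mean log2 CPM of marker genes, none of them a member, and each slope is the change in a factor's log2 level per unit of score. Klf4, Gata6, Hnf4g and Hnf4a were called higher in libraries with more mature enterocyte transcripts. Klf5, Cdx1, Cdx2 and Elf3 were not called. These 4 of 8 members stand against 46.1% of all tested genes called with that score, so the share is close to that of genes in general. In all, 32 relations of members to scores were examined, and the adjusted p-values below come from edgeR over all tested genes.

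Hnf4g, low at 501 CPM in the most crypt-like library, dIEC 9, and highest at 888, 804 and 794 CPM in WT 4, WT 10 and dIEC 7, had the closest relation (Pearson r = 0.888, permutation p = 0.00063; Spearman rho = 0.855, permutation p = 0.00268; n = 10). Its slope was 0.53 (SE 0.11, edgeR adjusted p = 0.00271), and r was 0.853 without dIEC 7 and dIEC 9, the libraries farthest from the median score. Gata6 gave r = 0.865 (permutation p = 0.0016; rho = 0.794, permutation p = 0.00857) with a slope of 0.67 (SE 0.13, edgeR adjusted p = 0.00156), and r = 0.767 without those libraries. Klf4 had the steepest slope, 1.37 (SE 0.26, edgeR adjusted p = 0.00143), with r = 0.834 (permutation p = 0.00324; rho = 0.770, permutation p = 0.0123) and r = 0.659 without those libraries. Hnf4a had a shallower slope of 0.32 (SE 0.12, edgeR adjusted p = 0.0381), with r = 0.741 (permutation p = 0.0122; rho = 0.745, permutation p = 0.0174) and 0.599 without those libraries. Of all tested genes, 6.33% had a positive r at least as large as Hnf4g, 8.58% as Gata6, 11.4% as Klf4 and 19.5% as Hnf4a. Relations of this size were therefore common in these libraries.

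Klf5 had r = 0.542 (permutation p = 0.103; rho = 0.358, permutation p = 0.314; edgeR adjusted p = 0.139), and r = -0.162 without dIEC 7 and dIEC 9, so its positive value rests on those 2 libraries. Cdx1 (r = -0.247, permutation p = 0.501), Elf3 (r = -0.025, permutation p = 0.948) and Cdx2 (r = -0.0098, permutation p = 0.979) showed no relation that could be told from 0. Without dIEC 7 and dIEC 9, r was -0.493 for Cdx1, -0.260 for Elf3 and -0.560 for Cdx2, none of them called in edgeR. The value near 0 for Cdx2 thus depends on those 2 libraries too.

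The proliferation score gave the mirror image (r of the 2 scores = -0.944), and 3 of 8 members were called with it, against 44.1% of all tested genes. Hnf4g was lower in libraries rich in proliferation transcripts (r = -0.895, permutation p = 0.00036; rho = -0.939, permutation p = 0.0002; edgeR adjusted p = 0.00357). Gata6 (r = -0.739, edgeR adjusted p = 0.0173) and Klf4 (r = -0.713, edgeR adjusted p = 0.0166) were called as well. Hnf4a missed the threshold (r = -0.723, edgeR adjusted p = 0.0517), and Klf5, known from dividing crypt cells, had r = -0.552 (edgeR adjusted p = 0.132). The crypt stem score, which ran with proliferation (r = 0.978), called the same 3 factors Hnf4g, Gata6 and Klf4, against 39.2% of all tested genes.

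These calls leaned on the ends of the axis. Without both dIEC 7 and dIEC 9, Hnf4g alone was called with the enterocyte and with the proliferation score, and no member with the crypt stem score. Without dIEC 7 alone, or dIEC 9 alone, Gata6 (adjusted p = 0.0524 and 0.0866) and Klf4 (0.086 and 0.0713) were no longer called with proliferation in edgeR. The crypt stem score then called Hnf4g alone without dIEC 7 or without WT 2, and 0 of 8 without dIEC 9. Hnf4a was called with the enterocyte score when WT 10 or dIEC 1 was left out, but not without any one of the other 8 libraries (edgeR adjusted p from 0.0544 to 0.204).

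Scaling mattered too, because the enterocyte score ran with the log2 TMM factor (r = -0.981 over the 10 libraries). With library size as the only scaling, the scores were computed anew from values scaled that way. The median slope of all tested genes on the enterocyte score was then -0.53 in place of 0.02. Of called genes, 14.2% in place of 53.3% were positive. Klf4 was then called higher and Cdx1 lower, and Hnf4g, Gata6 and Hnf4a were not called. The proliferation score then called Cdx1, Klf4 and Elf3 and the crypt stem score Cdx1 and Elf3, so Hnf4g and Gata6 were lost from both. The slopes of Hnf4a and Klf5 turned to -0.11 and -0.21. Relative to the median gene, the enterocyte slope of Klf4 was 2.08 higher with that scaling and 1.35 with TMM. That of Gata6 was 1.02 and 0.64, that of Hnf4g 0.79 and 0.51, that of Hnf4a 0.42 and 0.30, and that of Klf5 0.32 and 0.22. Those of Cdx1 (-0.18 and -0.10), Elf3 (-0.08 and -0.04) and Cdx2 (-0.02 and -0.01) lay near or below the median gene. Because the score differs between the scalings, a unit of it differs too, and the paired sizes do not show which relation is stronger. With proliferation, the slope of Klf4 relative to the median gene was -0.53 with library size only and -0.61 with TMM.

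**Figure D3:**
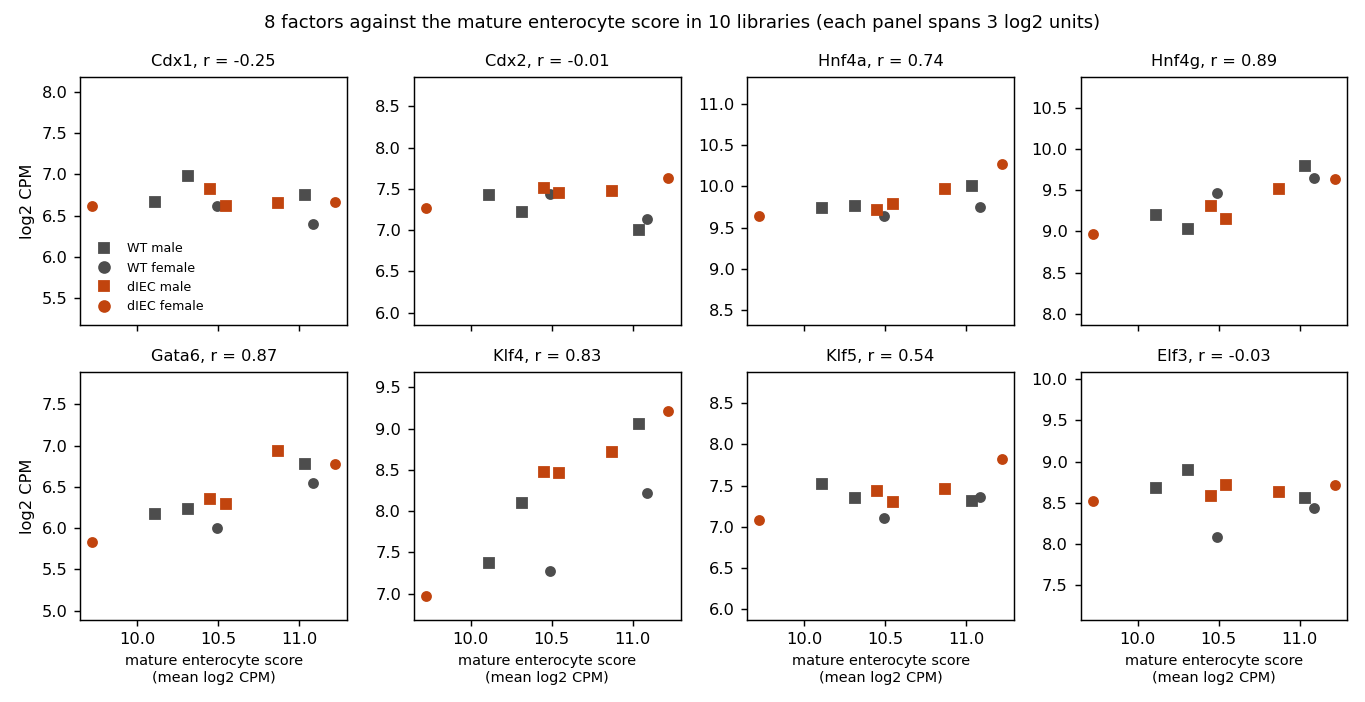
Log2 CPM of each factor against the mature enterocyte score in 10 libraries, each panel spanning 3 log2 units. Klf4, Gata6, Hnf4g and, less steeply, Hnf4a are higher to the right and Cdx1, Cdx2 and Elf3 are flat. With library size as the only scaling, and the score computed anew, the slopes of Hnf4a and Klf5 turn negative. Those of Cdx1 (-0.71), Cdx2 (-0.55) and Elf3 (-0.61) are then negative too, beside a median of -0.53 over all tested genes.

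The goblet cell score called 0 of 8 members in edgeR, with 0 of 8 at an unadjusted p under 0.05, against 0.617% of all tested genes. Cdx1 came nearest, with r = 0.761 (permutation p = 0.0149; rho = 0.745, permutation p = 0.0176; edgeR adjusted p = 0.954) and r = 0.636 without WT 4 and WT 10, the libraries farthest from the median. Of all tested genes, 1.55% had a positive r with the goblet score as large. Elf3 had r = 0.483 and Klf4, needed for goblet cell maturation in colon, r = 0.363. After removing sex and genotype means, these values were 0.055 and 0.195. The goblet score moved with sex, since 19 of 20 tested goblet genes had a log2 fold change below 0 in females against males (median -0.93, 0 called in edgeR).

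Ratios of related factors within a library do not depend on scaling. Klf4 to Klf5 ran over a 3.70-fold range, from a log2 ratio of -0.14 in WT 2 to 1.74 in WT 4. The other WT libraries had 0.75 (WT 6), 0.16 (WT 8) and 0.86 (WT 10), and dIEC 1, 3, 5, 7 and 9 had 1.03, 1.16, 1.26, 1.40 and -0.11. Klf5 thus had more reads than Klf4 in WT 2 and dIEC 9 and fewer in the other 8 libraries. The ratio was higher in libraries with a higher enterocyte score (r = 0.808, permutation p = 0.00523, adjusted over 6 relations 0.0314; rho = 0.794, permutation p = 0.00896, adjusted 0.0538; r = 0.709 without dIEC 7 and dIEC 9). It was the only 1 of 6 relations called, and it missed the threshold without WT 2, WT 4, dIEC 5 or dIEC 9 (r from 0.734 to 0.798, permutation adjusted p from 0.0631 to 0.138). Against the proliferation score r was -0.662 (permutation p = 0.0372, adjusted 0.112).

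Hnf4g to Hnf4a, as log2 ratios of CPM, was -0.53, -0.21, -0.72, -0.18 and -0.10 in WT 2, 4, 6, 8 and 10, and -0.40, -0.64, -0.44, -0.63 and -0.66 in dIEC 1, 3, 5, 7 and 9. WT 4, WT 8 and WT 10 lay above every dIEC library and WT 2 and WT 6 did not. Cdx1 to Cdx2 was -0.76, -0.24, -0.23, -0.82 and -0.74 in WT and -0.69, -0.82, -0.83, -0.97 and -0.65 in dIEC, in the same order, with WT 4 and WT 6 above all others. Between genotypes the mean log2 ratio of dIEC minus WT was -0.21 for Hnf4g to Hnf4a (exact two-sided permutation p = 0.135), -0.23 for Cdx1 to Cdx2 (exact permutation p = 0.190) and 0.28 for Klf4 to Klf5 (exact permutation p = 0.540; n = 5 each). Adjusted over the 3 ratios these exact permutation p-values were 0.286, 0.286 and 0.540, where the smallest p this design allows is 0.00794. In males alone the difference for Hnf4g to Hnf4a was -0.0067. With the enterocyte score Hnf4g to Hnf4a had r = 0.467 and Cdx1 to Cdx2 r = -0.146, neither called.

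**Figure D4:**
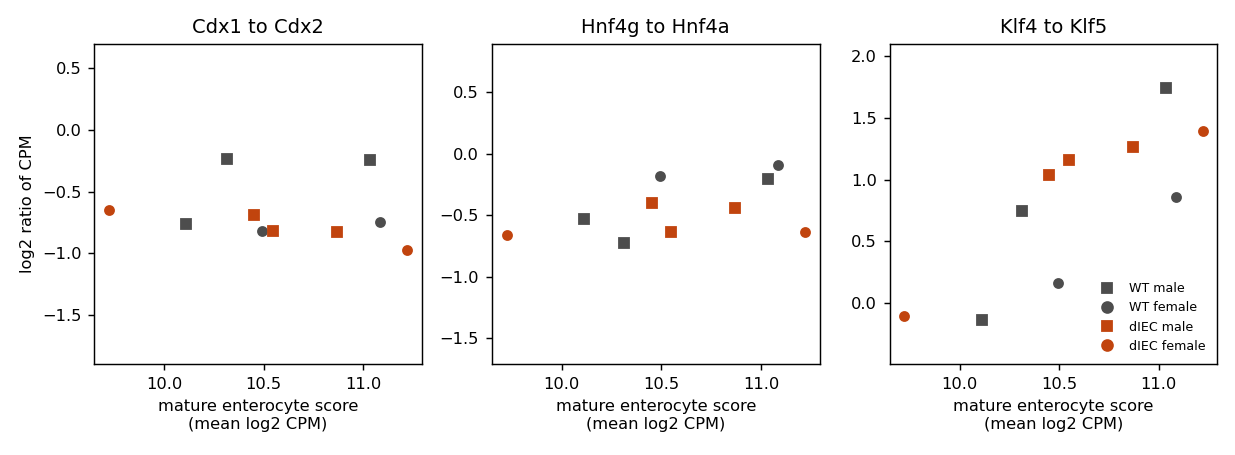
Log2 ratio of CPM of 3 pairs of related factors against the mature enterocyte score in 10 libraries, with all panels on the same height of scale. Klf4 to Klf5 spans -0.14 to 1.74 and is higher to the right, while the other ratios span at most 1.67-fold.

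For each factor the 3 genes with the most similar pattern over the 10 libraries were listed, by Pearson r of log2 CPM among genes with a mean of at least 10 CPM. Klf4 had the closest matches, Pde4dip (r = 0.992), the actin-nucleating brush border gene Cobl (0.991) and the netrin receptor gene Unc5b (0.988). Hnf4g was followed most closely by Rnf185 (0.970), Mocs2 (0.965) and Ahcyl2 (0.960), and Gata6 by the cytochrome P450 gene Cyp4b1 (0.965), the Hippo pathway effector Yap1 (0.959) and Sbf2 (0.958). Hnf4a was closest to Poldip3 (0.959), Peli1 (0.953) and Stat6 (0.949), which transmits interleukin 4 and 13 signals, and Klf5 to Top3b (0.956), Zc3h18 (0.942) and Rab4b (0.930). Elf3 was closest to Alpk1 (0.916), 4930402H24Rik (0.902) and Tifa (0.887). Alpk1 and Tifa encode a bacterial sugar sensor kinase and the adaptor it acts on. Matches were weaker for Cdx1, with Cracr2b (0.879), Ttc39a (0.866) and Taf5 (0.861), and for Cdx2, with 2310033P09Rik (0.837), Rab19 (0.811) and Dmap1 (0.796). All values share the same 10 libraries and scaling and are the highest of many genes, so they describe likeness only.

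Other transcription factors of intestinal epithelium were taken from a list of 69, of which 64 were tested. Between genotypes 0 of 64 were called in edgeR. An unadjusted p under 0.05 was found for 0 of 64, against 355 of all 12477 tested genes. Of the 64 log2 fold changes 44 were above 0 and 20 below, and the median was 0.07. The smallest p belonged to Isx, a homeodomain gene of vitamin A uptake (log2 fold change 0.26, SE 0.12, edgeR adjusted p = 0.9999). Isx was at 158 ± 9.07 CPM in the WT mice and 189 ± 19.5 CPM in the dIEC mice (SD, 5 each). With the enterocyte score 36 of 64 were called, 27 positive and 9 negative. That is 56.2%, beside 50% of the 8 members and 46.1% of all tested genes. Creb3l3, a factor of villus fat handling, had a slope of 1.46 (SE 0.10), beside 1.37 for Klf4. Klf3 (0.75, SE 0.14), Gata4 (0.63, SE 0.16) and Klf6 (0.51, SE 0.13) were called in the direction of Gata6 and Hnf4g. Tbx3 (0.89) and Pparg (0.65) were called too, and Isx (0.12), Sp1 (0.10), Xbp1 (-0.10) and Neurod1 (-0.44) were not. Ehf, an ETS factor related to Elf3, had -1.62 (SE 0.24) and Sox9, a crypt factor, -1.496 (SE 0.23), both called, while Elf3 itself was at -0.02 (SE 0.15).

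Genes known to depend on HNF4 or Cdx factors were read from the same genotype test. Of 22 tested absorptive genes tied to HNF4, 9 had a log2 fold change above 0 and 13 below, with a median of -0.02 and 0 called in edgeR (1 at an unadjusted p under 0.05, Acaa2). The lipoprotein genes Apob (11757 ± 4687 CPM in WT and 13871 ± 5604 CPM in dIEC) and Apoa1 (8500 ± 2917 and 9758 ± 4421 CPM) and the fatty acid binding gene Fabp2 (6493 ± 2318.7 and 6187 ± 1824 CPM) overlapped between genotypes. Of 20 tested epithelial genes tied to Cdx factors, 13 were above 0 and 7 below, with a median of 0.04 and 0 called (2 at an unadjusted p under 0.05, Mep1a and Car4). Lactase, Lct, was at 4097 ± 2109 and 4024 ± 2374 CPM, and the microvillus cadherin gene Cdhr2 at 3373 ± 1324 and 4076 ± 1780 CPM (SD, n = 5 each). Acaa2, Mep1a and Car4 were named after their values were seen. Of all 12477 tested genes, 355 had an unadjusted p under 0.05 in this test.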

How the data were processed

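Total RNA libraries were made with a stranded Illumina kit after ribosomal RNA removal, per the labels' protocols, and the submitters' processing notes name the aligner Novoalign and the build mm10. How reads were counted, with or without strand, and on which annotation is not given in the sources used here. The authors deposited raw counts per gene, with no normalization. Library totals ran from 9174101 to 13484363, and 0 sample columns were unmatched. No library repeated another, since pairs within a genotype had a chi-square 16.0 to 152 times its degrees of freedom.

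edgeR 4.0.16 in R 4.3.3 kept 12477 genes by filterByExpr on genotype, scaled them by TMM and fitted sex plus genotype, or their product, by robust quasi-likelihood. Benjamini-Hochberg adjusted p under 0.05 over all tested genes made a call. log2 CPM used a prior count of 2. Correlations used 100000 permutations, two-sided, in scipy 1.17.1. The score relations were planned with adjustment over the 32 relations. They were instead tested in edgeR with the score as the only covariate, over all tested genes, a choice made after seeing the data. The methods were tested on simulated data. Alternatives were DESeq2 1.42.0, limma 3.58.1 voom, other scalings, filters, covariates, lengths and prior counts, males alone, and leaving out libraries.

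The members, lists and dIEC 7 and dIEC 9 as libraries to leave out were chosen with earlier results of these data known. Named genes were the members, H2-Ab1, 3 like genes per member, 9 preset factors and the 6 other factors with the smallest genotype p, and up to 3 of the most abundant genes of each list, of which part are given. Some items the rule names are not reported here.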

Additional observations from a re-analysis of the deposited data

Results flagged for a closer look

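Single libraries stood apart from the rest of their genotype in 2 of 22 groups examined (the 8 factors and 3 ratios in each genotype). A rate of 1 in 20 per group would give about 1.1. The groups are not independent, since the ratios are made from the same factors in the same libraries, so that figure is only a rough guide. Cdx1 was at 113 CPM in dIEC 1, while the other 4 dIEC libraries lay between 98.0 and 101 CPM. The log2 ratio of Klf4 to Klf5 was -0.11 in dIEC 9, while the other 4 dIEC libraries lay between 1.03 and 1.40. dIEC 9 also had the lowest enterocyte score and the highest proliferation score of the 10 libraries.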

How the results depend on the processing

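No paired analysis was made, because the labels number the mice in a single run over both genotypes and name no pairs. Over 20 alternatives 0 of 8 members were called between genotypes. DESeq2 called 4 of all tested genes there, 9 by sex and 16 for the interaction, where limma voom called 2 and library size as the only scaling 0. A proliferation covariate gave 4 genes by genotype and 559 by sex, 1 of them a member. The cause of each change was not tested.

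By genotype, males alone gave log2 fold changes of -0.017 for Hnf4a, -0.0055 for Klf5 and -0.082 for Elf3, and leaving out dIEC 7 and dIEC 9 gave -0.013 for Hnf4a and -0.074 for Elf3. By sex, Hnf4a was -0.0075 with DESeq2 size factors, -0.0076 with DESeq2 and -0.056 with library size only, which gave -0.042 for Cdx2, and the proliferation covariate gave -0.11 for Hnf4a and -0.073 for Hnf4g.

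Without dIEC 7 and dIEC 9, 787 genes and 0 members were called with the crypt stem score, 1209 and 1 with proliferation, and 1677 and 1 with enterocytes. Klf5 then had r = 0.186 with proliferation and -0.162 with enterocytes. With library size only, 2 members were called with enterocytes, 49 genes with goblet cells (0 after removing sex and genotype means), and r was 0.235 for Hnf4a and 0.308 for Klf5 with proliferation and -0.299 and -0.337 with enterocytes. After removing those means, r was -0.0115 for Cdx2 and -0.109 for Elf3 with proliferation, 0.0199 and 0.0437 with enterocytes, and 2 ratio relations were called. With sex and genotype in the edgeR model, Hnf4a, Hnf4g, Gata6 and Klf4 were called with crypt stem, proliferation and enterocytes alike. Of all 12477 tested genes, 6513, 6781 and 6262 were called with these scores.

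Leaving out 1 library at a time gave these ranges. The genotype log2 fold change ran from -0.069 to 0.052 for Cdx1, -0.030 to 0.17 for Hnf4a, -0.21 to 0.013 for Hnf4g, -0.041 to 0.24 for Gata6, -0.093 to 0.73 for Klf4, -0.049 to 0.18 for Klf5 and 0.0080 to 0.17 for Elf3. By sex it ran from -0.093 to 0.10 for Cdx2, -0.16 to 0.095 for Hnf4a, -0.020 to 0.23 for Hnf4g, -0.34 to 0.011 for Gata6, -0.89 (without dIEC 7) to -0.015 (without WT 4) for Klf4 and -0.22 to 0.074 for Klf5. The interaction ran from -0.54 to 0.12 for Hnf4g and -1.07 to 1.18 for Klf4, with 0 to 1 genes called. Called genes ran from 2570 (without dIEC 7) to 5949 for crypt stem, 3444 (without dIEC 7) to 6097 for proliferation and 12 (without WT 4) to 80 for goblet cells. Called members ran from 0 to 4 for crypt stem and 1 to 4 for proliferation. With proliferation r ran from -0.247 to 0.462 for Cdx2 and -0.0365 to 0.324 for Elf3. With enterocytes it ran from -0.324 to 0.288 for Cdx2 and -0.146 to 0.0942 for Elf3. The Cdx1 to Cdx2 ratio ran from -0.0502 to 0.538 with proliferation and -0.475 to 0.0652 with enterocytes, and 0 to 2 of 6 ratio relations were called.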

Other observations

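Genes of neighbouring gut segments were also read, since Cdx factors are known for holding stomach fate off. Of 16 stomach genes 2 were listed, the mucin gene Muc6 with 0 to 10 counts and Gkn3 with 2 to 39 counts per library, and neither had enough counts to test. Of 12 colon genes 7 were listed and 6 tested, with 0 called between genotypes in edgeR (0 at an unadjusted p under 0.05), 4 above 0 and 2 below. All 9 tested proximal small intestine genes had a log2 fold change below 0 (median -0.23), beside 5913 of all 12477 tested genes. Lct and Mme among them are also mature enterocyte genes. Of the 9, 0 were called in edgeR and 1 had an unadjusted p under 0.05, the glutathione transferase gene Gsta1 (-1.32, SE 0.47). Of 10 tested ileum genes 6 were above 0 and 4 below (median 0.13), with 0 called in edgeR and 1 at an unadjusted p under 0.05, the ileal hormone gene Fgf15 (1.37, SE 0.26). Gsta1 and Fgf15 were named after their values were seen. Of all 12477 tested genes, 355 had an unadjusted p under 0.05 between genotypes in edgeR.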
